A study of Mus musculus with 24 samples.

Results

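The genes described here are the cytoplasmic and mitochondrial machinery that charges tRNAs with amino acids and carries out the steps of protein synthesis. They were chosen by symbol: names beginning with Eif1 to Eif6, Eef1, Eef2, Etf1 or Gspt, the aminoacyl-tRNA synthetases named by a letter and "ars", and Eprs. This gave 68 of the 8315 gene symbols on the array, of which 58 had at least 2 values on each day and were tested, among 5660 tested genes. The 58 were 35 translation factors (30 of initiation, 3 named for elongation and 2 of release), 4 regulators and 19 synthetases (13 cytoplasmic and 6 mitochondrial). Synthetases were classed by symbol alone, with those ending in 2 taken as mitochondrial. That does not show that a gene called cytoplasmic serves the cytoplasm only. Ears2, Eif2ak3, Eif2s3x, Eif3e, Eif4e3, Eif4ebp2, Lars2, Mars1, Sars2 and Wars2 had values on 3 to 20 of the 24 arrays, too few on at least 1 day, and were not tested.

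The cells were HBC-3, a mouse hepatoblast line that can go on to form hepatocyte-like or bile-duct-like cells. They were kept on Matrigel, a basement membrane gel, for 1, 2, 3, 4, 5, 6 or 7 days. The day 0 group was undifferentiated HBC-3 cells. Each of the 8 days had 3 arrays, lettered A, B and C. All cultures descended from cells kept on a STO fibroblast feeder layer, which the labels say was removed by trypsin and replating, and all RNA was amplified. Every array set a Cy5 target from the day's cells against a Cy3 target from undifferentiated cells, so at day 0 both channels held the same kind of cell. Values are read as log2 of sample over that common RNA. The labels give the dyes, but neither the base nor the numerator of the deposited ratio is stated there, so scale and direction rest on this reading. A ratio carries no level, so the markers of the cell type could not be used to show that the cells were hepatoblasts. The 3 arrays a day limit the precision: the median standard error of a change at day 7 was 0.314 (log2).

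Protein synthesis starts when the eIF4 group binds the capped mRNA, eIF3 joins it to the small ribosomal subunit, and eIF2 brings the initiator tRNA, after which eIF2 is recharged with GTP by eIF2B. Elongation factors deliver charged tRNAs and release factors end the chain. Synthetases attach each amino acid to its tRNA. Several cytoplasmic synthetases sit in a multisynthetase complex held together by the scaffold proteins Aimp1, Aimp2 and Eef1e1 (also called AIMP3), so Eef1e1 carries an elongation factor's symbol but is chiefly a scaffold. When amino acids run short, the kinase Eif2ak4 (GCN2) phosphorylates eIF2, and the transcription factor ATF4 then induces many synthetase genes through amino acid response elements. MYC binds E-boxes and is known to drive many genes of translation. In liver, whose cells make most plasma proteins, this machinery is heavily used.

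Promoter windows from RefSeq (GRCm38.p6, 250 bases before to 50 after a start) were held for 52 of the 68 genes. The letters TGATGNAAN on either strand, the core of an amino acid response element, were in the windows of 4 of 19 synthetase genes (21.1%), Gars, Iars, Tars and Yars, and in 2 of 33 other members (6.06%), Eef2k and Eif2s3x, against 4.5% of all 27025 genes with a window. The E-box letters CACGTG were in windows of 10 of the 52 genes (19.2%), against 8.09% of all genes. In the windows shown the 2 motifs do not overlap. The windows below, from 80 bases before the start to 20 from it on, are shown since they hold the amino acid response letters (capitals, Gars, Iars and Tars on the opposite strand), or belong to the member with the most days called and to the E-box member with the clearest fall (E-box in capitals). The Iars window also holds an E-box, first base at -69, left in lower case. An E-box of Tars starts at 19, the last base shown. A match of letters is a description and not a bound site.
Gars, chr6:55037921-55038020, plus strand: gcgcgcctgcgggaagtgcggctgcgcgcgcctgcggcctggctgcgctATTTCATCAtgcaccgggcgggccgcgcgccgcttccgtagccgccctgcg
Iars, chr13:49682050-49682149, plus strand: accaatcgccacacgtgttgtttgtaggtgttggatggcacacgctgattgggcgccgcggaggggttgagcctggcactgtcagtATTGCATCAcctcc
Tars, chr15:11399639-11399738, minus strand: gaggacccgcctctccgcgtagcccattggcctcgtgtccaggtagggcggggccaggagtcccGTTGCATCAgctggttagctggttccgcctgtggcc
Yars, chr4:129189823-129189922, plus strand: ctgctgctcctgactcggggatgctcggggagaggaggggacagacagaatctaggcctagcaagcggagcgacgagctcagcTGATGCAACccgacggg
Eef1e1, chr13:38659009-38659108, minus strand: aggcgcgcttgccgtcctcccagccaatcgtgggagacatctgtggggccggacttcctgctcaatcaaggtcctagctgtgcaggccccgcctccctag
Eif5a, chr11:69921367-69921466, minus strand: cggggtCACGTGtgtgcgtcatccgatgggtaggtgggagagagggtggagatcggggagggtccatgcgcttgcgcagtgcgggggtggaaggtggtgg

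The day 0 arrays differed among themselves: A and B correlated at 0.761 over units, but A and C at -0.344, and day 3 array B correlated with day 0 arrays A and B at -0.511 and -0.441. Further correlations below -0.3 joined day 0 arrays A or B to arrays of days 5, 6 and 7 (down to -0.354). The labels do not say whether a day's arrays stem from separate cultures, so each p-value below reflects the spread between arrays alone and may be technical. Of 17 fibroblast markers 9 were tested, and 3 rose at day 1 and 3 at day 7. The median ratio over the 9 was -0.09 to 0.50 on the day 7 arrays, against -0.88 to 0.11 at day 0. It was 0.77 to 1.17 on days 2 and 3 and 0.70 to 0.92 on day 4. Between days 5 to 7 and days 1 to 3, 1 marker rose and 3 fell. Of 4 tested hepatoblast markers 3 rose at day 7 (median change 1.87). Their part in the changes of translation genes was not tested. In these cultures fewer cells of a type and less RNA per cell cannot be told apart.

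Across the course the machinery did not move as a block. Counts are of genes past an adjusted p of 0.05 in limma, fitted and adjusted over all 10639 tested genes and unnamed features. At day 1, 0 members rose and 1 fell, against 4.99% of all units higher and 5.92% lower. At day 2, 2 rose and 3 fell (background 9.05% and 8.04%), and at day 3, 3 rose and 3 fell (12.2% and 12.3%). At day 4, 3 rose and 5 fell (11.3% and 10.9%), and at day 5, 4 rose and 6 fell (11.7% and 11.2%). At day 6, 4 rose and 6 fell (12.2% and 12.6%), and at day 7, 3 rose and 4 fell (14.6% and 13%). The shares of members, from 0% to 6.9% higher and from 1.72% to 10.3% lower, were below the background on every day and in both directions. All comparisons with day 0 share its 3 arrays. How far the counts moved with the processing is given at the end: those of days 1, 2, 3 and 7 exceeded the main count under several settings, as did the share of all units. Counts of days 4, 5 and 6 also exceeded the main count against the common RNA, where the share of all units rose too.

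**Figure D1:**
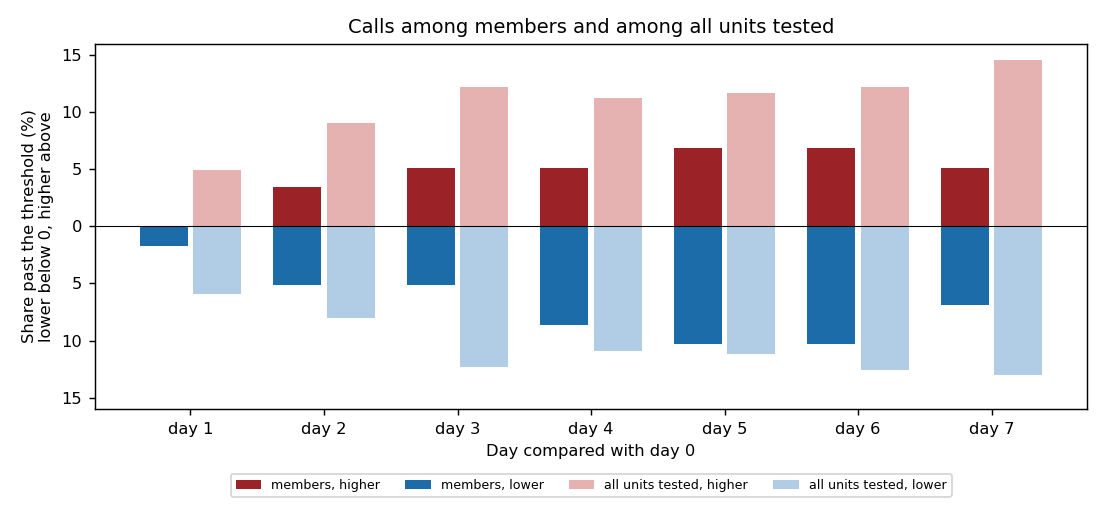
Bars give the percent of the 58 members (dark, left) and of all 10639 units tested (pale, right) past the threshold on each day against day 0, higher above the line and lower below it. The dark bars are the shorter in every pair, with 5.17% of members higher at day 7 against 14.6% of all units.

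On at least 1 day, 17 of 58 members (29.3%) were called, against 4407 of 10639 units (41.4%). Changes were also small: 45 of 58 members (77.6%) stayed under a size of 1 on the log2 scale on every day, against 64.7% of units. These shares do not compare like with like. A member's value is the mean of its features, and 28 of the 58 had more than 1. The 10639 units hold single unnamed features besides 5660 genes. What averaging does to the shares was not tested. Of the 17, 11 were factors, 6 were synthetases and 0 were regulators. Of these, 8 were called higher and 9 lower, and none changed side between days. Only Eef1e1, Eif4b and Mars2 were called on 5 or more of the 7 days. Such days are not separate evidence, since they share the day 0 arrays. Late arrays of a letter were also alike. The C arrays of days 4 and 5 correlated at 0.963 over units, but day 5 arrays A and C at 0.48. In the F-test for any change over the course, 4 members passed, Eef1e1, Eif5a, Rars and Eif4b, which is 6.9% of the 58 against 16.5% of all units.

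The largest change belonged to Eef1e1, the multisynthetase scaffold. Its log2 ratios were 0.08, 0.17 and 0.33 on the day 0 arrays A, B and C. They were -1.18, -1.37 and -0.81 at day 1, -1.38, -1.41 and -1.10 at day 2, -1.39, -1.35 and -1.37 at day 3, then -1.92, -1.54 and -2.75 at day 4. At days 5, 6 and 7 they were -1.57, -1.52 and -2.50, then -1.66, -3.08 and -3.15, then -1.42, -1.03 and -2.10. Every array of days 1 to 7 lay below every day 0 array. The fall was by 1.31 ± 0.37 (SE, n = 3 arrays a day) at day 1 (adjusted p = 0.0264, limma), a 2.48-fold lower ratio. It was widest at day 6, 7.07-fold lower (log2 change -2.82 ± 0.37, adjusted p = 2.88e-05), and 3.27-fold at day 7 (-1.71 ± 0.37, adjusted p = 0.00221). The day 1 call was lost without any 1 of its 6 arrays (adjusted p from 0.0511 to 0.0967), while those of days 2 to 7 held without each array in turn. Its single feature is the whole basis of these values.

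The other scaffold genes of that complex, outside the symbol rule, were also lower. At day 7, Aimp2 had fallen by 1.45 ± 0.22 (adjusted p = 0.00013) and Aimp1 by 0.89 ± 0.22 (adjusted p = 0.00596). Of the 6 tested synthetases that the scaffold holds, 0 were called at day 7 in limma (3 had an unadjusted p under 0.05), with log2 changes from -0.66 for Kars to 0.76 for Rars. Earlier calls went both ways: Iars was lower at days 4 and 5, Qars higher at days 4 and 6, and Rars higher at day 6. The difference between scaffold and synthetases was not tested.

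**Figure D2:**
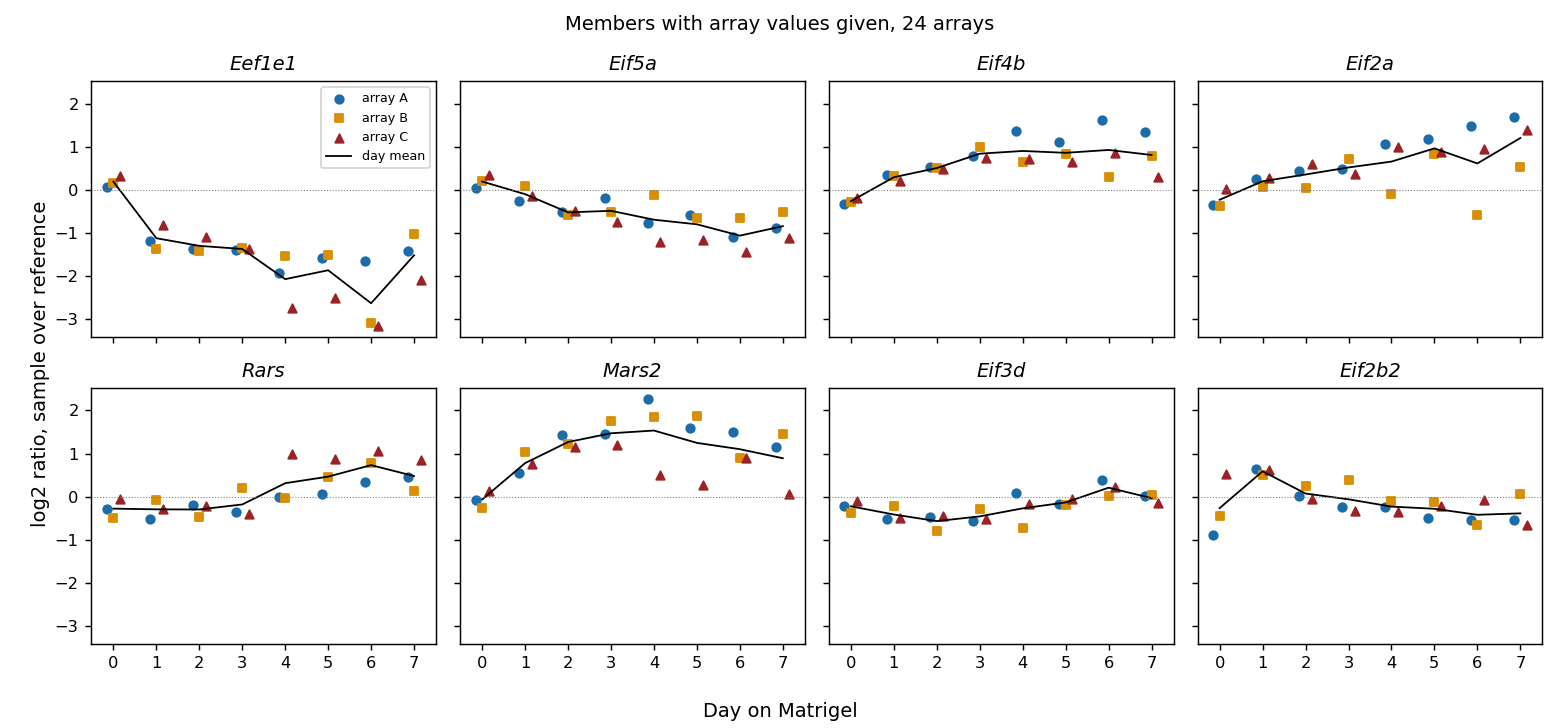
Each panel plots 1 gene's log2 ratio of sample over common reference (vertical axis) by day on Matrigel (horizontal axis), with a mark for each of the arrays A, B and C and a line through the day means. Eef1e1 lies between -0.81 and -3.15 after day 0 and Eif4b between 0.21 and 1.63, and from day 4 the C arrays of Eef1e1, Rars and Mars2 often lie apart from A and B.

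Among the eIF4 group, which unwinds and binds the capped end of mRNA, 2 of 6 tested genes (33.3%) were called at day 7, both higher, near the 27.6% of all units called there in either direction. Eif4b, which stimulates the helicase, had ratios of -0.33, -0.27 and -0.18 at day 0, 0.35, 0.33 and 0.21 at day 1, 0.54, 0.50 and 0.49 at day 2, then 0.79, 1.00 and 0.74 at day 3. From day 4 to day 7 the arrays A, B and C gave 1.36, 0.65 and 0.71, then 1.11, 0.84 and 0.64, then 1.63, 0.31 and 0.85, then 1.35, 0.79 and 0.30. All arrays after day 0 were above all those at day 0, the arrays of days 1 to 3 agreed closely and those of days 4 to 7 spread out, with A the highest. The call held from day 3 (1.10 ± 0.28, adjusted p = 0.00897, limma) to day 7 (1.07 ± 0.28, adjusted p = 0.00906, 2.1-fold), and the day 7 call was lost without day 7 array A (0.81, adjusted p = 0.0556). All 3 of its features were higher at day 7, by 0.76 to 1.34. Its F-test call was lost without any 1 of the day 0 or day 1 arrays, day 2 arrays A or C, or day 3 array C (adjusted p up to 0.15). Eif4g3, a large scaffold related to eIF4G, rose by 1.11 ± 0.38 at day 7 (adjusted p = 0.0345) and was lost without day 7 array C (0.78, adjusted p = 0.171), day 7 array A (1.06, 0.0826) or day 0 array A (0.99, 0.115) or B (1.13, 0.0841). The cap-binding genes Eif4e and Eif4e2 and the helper Eif4h stood at -0.01, -0.17 and 0.03 at day 7, none called, and Eif4g2 at 0.59 ± 0.29 (adjusted p = 0.14). The features of Eif4e2 (-0.76 to 0.29) and of Eif4h (-0.20 to 0.65) disagreed there.

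Eif5a, which the ribosome needs at difficult peptide bonds such as runs of proline, moved the other way. Its ratios were 0.04, 0.21 and 0.34 at day 0, -0.25, 0.09 and -0.13 at day 1, -0.51, -0.57 and -0.48 at day 2, then -0.18, -0.52 and -0.75 at day 3. From day 4 to day 7 they were -0.76, -0.11 and -1.20, then -0.58, -0.64 and -1.17, then -1.09, -0.65 and -1.44, then -0.88, -0.52 and -1.12. Array C was the lowest on each of days 4 to 7, and no array of those days reached the day 0 values. The log2 change was -0.89 ± 0.27 at day 4 (adjusted p = 0.0217, limma), widest at day 6 (-1.26 ± 0.27, adjusted p = 0.002) and -1.04 ± 0.27 at day 7 (adjusted p = 0.00725, 2.05-fold lower). Days 6 and 7 held without each array in turn. Day 5 was lost without its array C (-0.80, adjusted p = 0.0668), and day 4 without its array C (-0.63, 0.129) or A (-0.85, 0.0555) or without day 0 array B (-0.88, 0.0682) or C (-0.81, 0.0547). The F-test call was lost without each day 0 array in turn (adjusted p from 0.0587 to 0.0912). Its promoter window, with an E-box whose first base is at -74 from the start, is printed above.

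Eif2a, an initiator tRNA factor distinct from the alpha subunit of eIF2, rose at days 5 and 7. Its ratios were -0.35, -0.36 and 0.03 at day 0, 0.26, 0.06 and 0.29 at day 1, 0.43, 0.04 and 0.61 at day 2, then 0.48, 0.71 and 0.38 at day 3. They were 1.07, -0.09 and 1.00 at day 4, 1.19, 0.83 and 0.88 at day 5, 1.48, -0.59 and 0.96 at day 6, then 1.69, 0.54 and 1.39 at day 7. Array B was low at days 4 and 6, where it fell among or below the day 0 arrays. The groups did not overlap at days 5 and 7, nor at days 1, 2 and 3, where Eif2a was not called. The change was 1.19 ± 0.40 at day 5 (adjusted p = 0.0346, limma) and 1.44 ± 0.40 at day 7 (adjusted p = 0.0114, 2.7-fold). The day 7 call was lost without its array A (1.20, adjusted p = 0.0547), and the day 5 call without any 1 of its own arrays (1.08 to 1.26, adjusted p from 0.06 to 0.0887) or day 0 array A (1.14, 0.101) or B (1.13, 0.113).

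The eIF3 complex, 10 tested subunits of the scaffold on the small ribosomal subunit, gave no common direction. At day 7 the median change was 0.12, with a range from -1.06 for Eif3b to 1.10 for Eif3c. Only Eif3i was called there, lower by 0.67 ± 0.24 (log2 change -0.67, adjusted p = 0.0443), and the call was lost without any 1 of 5 arrays, all but day 0 array A (-0.52 to -0.71, adjusted p from 0.0586 to 0.152). Eif3b and Eif3c did not overlap day 0 either but missed the threshold (adjusted p = 0.0762 and 0.0609), and both features of Eif3b were lower (-1.03 and -1.10). Eif3h rose at day 3 alone (0.98 ± 0.32, adjusted p = 0.0311), a call lost without day 0 array A (0.68, 0.194) or B (0.84, 0.131) or day 3 array B (0.73, 0.177).

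An eIF3 and an eIF2B subunit differed between the later and the earlier part of the course, a contrast of days 5 to 7 with days 1 to 3 that leaves day 0 out. In it 2 members rose (3.45%) and 3 fell (5.17%), near the shares of all units, 3.51% higher and 4.23% lower. Eif3d had ratios of -0.17, -0.19 and -0.05 at day 5, 0.39, 0.01 and 0.22 at day 6, then 0.02, 0.03 and -0.16 at day 7, against -0.53, -0.22 and -0.50 at day 1, -0.48, -0.79 and -0.44 at day 2, then -0.56, -0.29 and -0.53 at day 3. The 9 late arrays all lay above the 9 early ones (difference 0.49 ± 0.12, adjusted p = 0.0166, limma), and its ratios of -0.21, -0.37 and -0.10 at day 0 and 0.08, -0.73 and -0.17 at day 4 reached into both sets. Eif2b2, the beta subunit of eIF2B, had ratios of -0.49, -0.13 and -0.23 at day 5, -0.54, -0.65 and -0.08 at day 6, then -0.55, 0.05 and -0.67 at day 7, against 0.63, 0.51 and 0.62 at day 1, 0.01, 0.25 and -0.05 at day 2, then -0.24, 0.38 and -0.33 at day 3. The late and early arrays overlapped (-0.56 ± 0.17, adjusted p = 0.0435), the day 1 arrays were the highest, and day 0 was scattered at -0.89, -0.44 and 0.53, with -0.25, -0.10 and -0.35 at day 4.

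In the same contrast Eef1e1 fell by 0.74 ± 0.21 (adjusted p = 0.0396) and Eif5a by 0.53 ± 0.15 (adjusted p = 0.0404), and both sets overlapped. Arrays of the same letter deviated together across days 1, 2 and 3 (correlations of 0.194 to 0.441 over all units) and across days 5, 6 and 7 (0.142 to 0.898), so the 9 arrays of a set are not separate samples in full. With the arrays of a letter averaged within each set, 0 of the 5 members and 0 of 10639 units passed in limma (5 members and 1135 units had an unadjusted p under 0.05). Eif3d and Rars held without each of the 18 arrays in turn. Eef1e1 was lost without any 1 of the 9 early arrays, any late C array or day 6 array B (-0.64 to -0.78, adjusted p up to 0.0902). Eif5a was lost without 12 of the 18 arrays in turn (-0.47 to -0.56) and Eif2b2 without 15 (-0.49 to -0.61). With arrays scaled to equal spread, the differences were -0.11 for Eef1e1 (adjusted p = 0.65) and -0.30 for Eif5a (adjusted p = 0.155), and Eif2b2 was lost as well (-0.54, 0.119). Leaving out the C arrays of days 4 to 7 gave differences of -0.45 for Eef1e1 and -0.36 for Eif5a, neither called.

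Other initiation factors were called lower by less. Eif1a, which helps scan for the start codon, fell at days 3 to 6 by 0.51 to 0.65 (log2 change -0.51 to -0.65, adjusted p from 0.0125 to 0.044), and its near-identical relative Eif1ax, whose signal on a spotted array may not be separate, stood at -0.54 to -0.21 with no call. Eif2b3, the gamma subunit of eIF2B, fell at days 2 to 5 by 0.70 to 0.81 (adjusted p from 0.025 to 0.0403), while Eif2b1, Eif2b2 and Eif2b4 were not called on any day against day 0. Eif6, which keeps the ribosomal subunits apart, fell at day 6 (-1.14 ± 0.40, adjusted p = 0.0427), and Eif1ad, a relative of Eif1a, at day 7 (-1.25 ± 0.44, adjusted p = 0.0405). Each of these calls was lost without 3 to 5 of its 6 arrays in turn, and Eif1ad dropped to -0.68 (adjusted p = 0.254) without day 7 array C. The features of Eif1a and of Eif6 disagreed at day 7, from -0.73 to 0.09 for Eif1a and -1.10 and 0.11 for Eif6.

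The elongation factor subunits Eef1b2 and Eef1g were at -0.64 ± 0.25 (adjusted p = 0.0631) and -0.24 ± 0.30 at day 7, and were called on no day. The release factors Etf1, which reads stop codons, and Gspt1, its GTPase partner, were at -0.04 and -0.03 at day 7, with standard errors of 0.18 and 0.28, and -0.60 at the lowest for Gspt1 at day 2. The value of Etf1 is the mean of features that went opposite ways (-0.53 and 0.46). The 4 regulators, the eIF2 kinases Eif2ak1 (haem-regulated) and Eif2ak4, the eEF2 kinase Eef2k and the eIF4E transporter Eif4enif1, ranged from -0.30 to 0.02 at day 7, with 0 called on any day and 0 at an unadjusted p under 0.05. The features of Eif2ak4 also went opposite ways at day 7 (0.43 and -0.40).

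**Figure D3:**
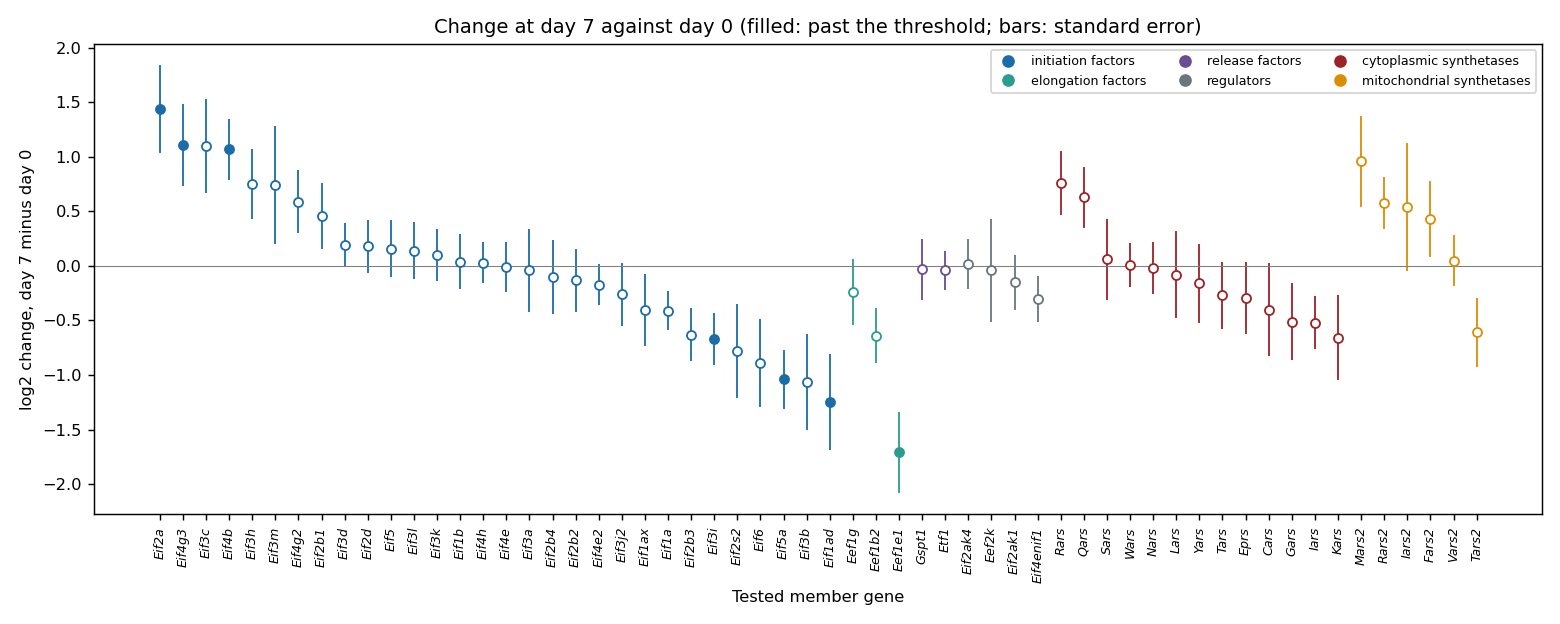
Points give the log2 change of each of the 58 tested members, day 7 minus day 0 (vertical axis), with the standard error of the fit from 3 arrays a day, grouped by role along the horizontal axis and filled where past the threshold. The filled points are 6 initiation factors and Eef1e1, and no synthetase is filled.

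Of the synthetases, 0 of 19 were called at day 7 (5 at an unadjusted p under 0.05), against 7 of 35 factors (20%) and 27.6% of all units, both directions together. On days 2, 4 and 6 the synthetases had the larger share, 15.8%, 15.8% and 21.1%. The factors then had 5.71%, 14.3% and 17.1%, and all units 17.1%, 22.2% and 24.8%. On days 1, 3 and 5 the factors had the larger share. Eef1e1, chiefly a scaffold of the synthetase complex, was counted as a factor. It was their only call at day 1 and was called on all 7 days. On at least 1 day, 6 of 19 synthetases and 11 of 35 factors were called, against 41.4% of all units. The difference between the classes was not tested. On the array level the median of the factors minus that of the synthetases lay between -0.38 (day 7 array A) and 0.20 (day 5 array B), and between -0.08 and 0.00 on the day 0 arrays. On days 1 to 7 the difference took both signs. Mitochondrial and cytoplasmic enzymes stood apart from each other in the day medians: the median change of the 6 mitochondrial genes was 0.30 to 0.52 on days 1 to 7 and that of the 13 cytoplasmic genes -0.41 to -0.10, against -0.02 to 0.04 for all units. The classes were split by symbol alone, and their genes overlapped on every day. At day 7 the mitochondrial genes ranged from -0.61 to 0.96 and the cytoplasmic from -0.66 to 0.76. These medians are a description, and on day 5 array B only 3 of the 6 mitochondrial genes had a value. Fars2 had none on the B arrays of days 4 to 7.

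Rars, the arginyl synthetase of the multisynthetase complex, was the member with the clearest late rise. Its ratios were -0.29, -0.50 and -0.05 at day 0, -0.51, -0.09 and -0.29 at day 1, -0.20, -0.48 and -0.22 at day 2, then -0.35, 0.20 and -0.40 at day 3. They were -0.01, -0.04 and 0.98 at day 4, 0.06, 0.46 and 0.87 at day 5, 0.34, 0.79 and 1.06 at day 6, then 0.45, 0.14 and 0.84 at day 7. From day 5 on every array was above 0 and C was the highest, and late and early arrays overlapped only through day 3 array B. The rise at day 6 was 1.01 ± 0.29 (adjusted p = 0.0146, limma, 2.02-fold), lost without day 0 array B (0.90, 0.0703) or day 6 array C (0.85, 0.0745), and the difference of days 5 to 7 from days 1 to 3 was 0.82 ± 0.17 (adjusted p = 0.00723). The F-test call was lost without 11 of the 24 arrays in turn (adjusted p up to 0.0894), among them day 0 arrays A and B.

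Mars2, the mitochondrial methionyl synthetase, is described by array after its values were seen. Its ratios were -0.07, -0.26 and 0.13 at day 0, 0.55, 1.03 and 0.75 at day 1, 1.42, 1.23 and 1.15 at day 2, then 1.46, 1.75 and 1.20 at day 3. They were 2.26, 1.85 and 0.49 at day 4, 1.59, 1.88 and 0.27 at day 5, 1.51, 0.89 and 0.90 at day 6, then 1.16, 1.45 and 0.06 at day 7. Arrays A and B stayed well above day 0 throughout, while C was lower from day 4 on than at days 2 and 3 and lay among the day 0 arrays at day 7. The rise passed on days 2 to 6, from 1.17 ± 0.42 at day 6 (adjusted p = 0.0478, limma) to 1.60 ± 0.42 at day 4 (adjusted p = 0.0103, 3.03-fold), and stood at 0.96 ± 0.42 at day 7 (adjusted p = 0.0939). The day 4 call was lost without day 4 array A (1.23, 0.0585), that of day 3 without day 0 array B (1.44, 0.0563) or day 3 array B (1.40, 0.0628), and those of days 2, 5 and 6 without 5, 4 and 6 of their 6 arrays in turn.

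The remaining synthetase calls were few. Iars, the isoleucyl enzyme, fell at days 4 (-0.83 ± 0.27, adjusted p = 0.0353) and 5 (-1.03 ± 0.24, adjusted p = 0.00558), where its ratios were -1.03, -1.66 and -0.69 at day 5 against -0.19, -0.18 and 0.10 at day 0. The day 5 arrays were all below those of day 0, and that call held without each array in turn. Day 4 had values on arrays A and C only, and its call was lost without any 1 of the 5 arrays that held a value. Without a day 0 array the change was -0.74 to -0.88 (adjusted p from 0.065 to 0.0819, limma). Leaving out day 4 array A or C left 1 value there, with changes of -0.70 and -0.97. The day 4 call was also lost with arrays scaled (-0.65, 0.0865). With only the compared groups fitted, neither day passed (adjusted p = 0.119 and 0.0643). Qars, the glutaminyl enzyme, rose at days 4 and 6 by 0.84 and 0.82, and the mitochondrial Rars2 at days 2 and 5 by 0.71 and 0.67, while the mitochondrial Tars2 fell at days 2 and 6 (-0.85 and -0.87), all with adjusted p between 0.0314 and 0.0499. Each was lost without 3 to 5 of its 6 arrays in turn. Against the common RNA in place of the day 0 arrays, Qars stood at 0.47 and 0.45 and Tars2 at -0.35 and -0.38, none called. With the signs of the day 0 arrays turned, Qars was at 0.10 and 0.08 and Tars2 at 0.14 and 0.12. Of the synthetases with the amino acid response letters, Gars was at -0.74 to -0.10, Tars at -0.84 to -0.27, Iars at -1.03 to -0.25 and Yars at -0.22 to 0.28 on days 1 to 7. The regulator Eef2k also has the letters and was not lower. Its mean ratio was 0.09 at day 0 and 0.05 to 0.68 on days 1 to 7, with no call. Kars, whose window lacks the letters, was at -1.0 to -0.41 with no call.

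**Figure D4:**
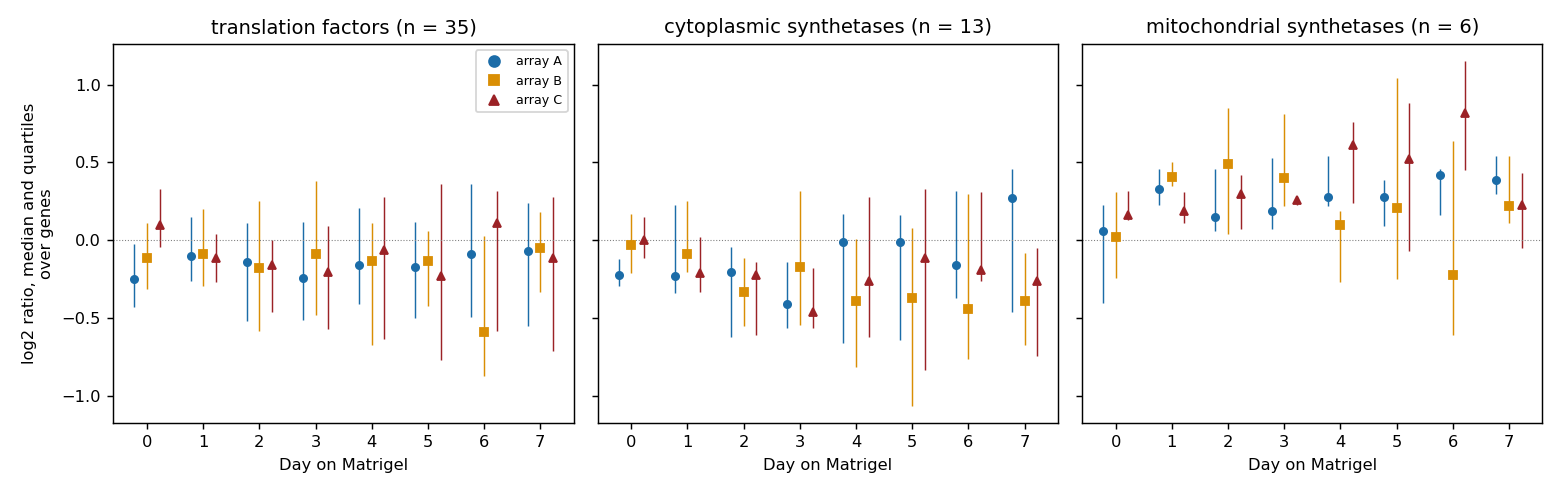
Points give the median log2 ratio over the genes of a class on each array and bars its quartiles, by day on Matrigel, for the 35 factors, 13 cytoplasmic and 6 mitochondrial synthetases. The factors' medians lie between -0.59 and 0.11, and the mitochondrial medians are above 0 on all arrays but day 6 array B (-0.22).

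Genes of the pathways around this machinery, from lists chosen with earlier results of these data known, moved in different directions by day 7, where 14.6% of all units rose and 13% fell. Of 14 tested MYC-responsive and nucleolar genes 0 rose and 4 fell (median change -0.78, all units -0.01): Odc1, the first enzyme of polyamine synthesis, by 1.78 ± 0.32 (adjusted p = 0.000428), Cad of pyrimidine synthesis by 1.31, Polr1b, a subunit of RNA polymerase I, by 0.98, and the ribosome assembly factor Rrs1 by 0.81. Myc itself was at -0.90 ± 0.38 (adjusted p = 0.0837). Of 17 genes of the integrated stress response and ATF4 targets 1 rose and 5 fell (median -0.22). Past the threshold were Shmt2 of serine and glycine metabolism, lower by 2.14 ± 0.55 (adjusted p = 0.00815), the arginine and lysine carrier Slc7a1 by 1.96 ± 0.27 (adjusted p = 3.77e-05), Phgdh of serine synthesis by 1.88 and asparagine synthetase, Asns, by 1.01, while the amino acid carrier Slc38a2 rose by 1.34. Atf4 was at -0.45 ± 0.20 (adjusted p = 0.0979) and Trib3, a target of ATF4, at -0.22.

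Of 12 tested genes of the mTORC1 pathway, which couples nutrients to translation, 5 rose and 1 fell at day 7 (median 0.62). Among them were Sesn1, an inhibitor upstream of mTORC1, at 3.09 ± 0.36 (adjusted p = 9.37e-06), Flcn, which acts on the Rag GTPases, at 2.16 and the GTPase Rragc, of the activating branch, at 1.43, with Ddit4l, a further inhibitor, at -1.32. Mtor itself was at 0.63 ± 0.50 (adjusted p = 0.363). Of 23 genes of tRNA maturation 2 rose and 4 fell, near the shares of all units, among them Pop4 (2.10) and Ctu2 (-1.43), and of 14 other translation genes Paip2, an inhibitor of poly(A)-binding protein, rose by 1.43 and Larp1 fell by 0.77. The poly(A)-binding protein gene Pabpc1 was at 1.19 ± 0.53 (adjusted p = 0.0968). All 3 tested genes of the scaffold and mitochondrial translation list fell, the third being the mitochondrial initiation factor Mtif2 (-0.70).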

How the data were processed

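Transcript levels were measured on 24 arrays of 2 colours. The authors deposited log ratios per feature, read here as log2 of sample over reference. Per the labels, the sample carried Cy5 and the common reference of undifferentiated cells Cy3, without dye swaps. How background was corrected, how arrays were normalized, why some cells are empty, and the base and numerator of the ratio: these are not stated in the labels. The deposited log2 values of 24157 features were centred on each array's median. Symbols came from the platform annotation, updated through Entrez identifiers (13290 features matched). Features listing several genes, 23 of them naming a member, were left unnamed. A gene was the mean of its features, and 123 features belonged to members.

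Units with at least 2 values in each day (10639 of 19153) were fitted as 8 day means (limma 3.58.1, lmFit and eBayes, R 4.3.3). Tests were 2-sided, with Benjamini-Hochberg adjustment over all units within each comparison and a threshold of 0.05. Comparisons were each day against day 0, days 5 to 7 against days 1 to 3, and a moderated F-test. The fit was tested on simulated data first.

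The members and lists were chosen with earlier results of these data known. Values of every array are given for members past the threshold in the F-test or the late against early contrast, and for up to 2 factors and 2 synthetases with the largest called change at day 7. From each list up to 4 genes called at day 7 are named, plus fixed genes such as Atf4 and Myc. Ddit3 was not analysed here, having no feature under that symbol. Same-letter deviations from the day means correlated at -0.544 to 0.46 between day 0 and later days, so the letters were not read as pairs across them. Arrays give no counts, so their number limits precision. Alternatives are given at the end.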

Additional observations from a re-analysis of the deposited data

How the results depend on the processing

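The members' counts depended on the processing. With arrays scaled to equal spread, 10, 15, 13 and 15 members passed at days 1, 2, 3 and 7, 2 between late and early days and 8 in the F-test. All units moved too, to 30.3%, 34%, 34.3%, 31.8%, 7.52% and 25.2%. With only the compared groups fitted, the counts were 5, 16, 16, 3, 3 and 4 at days 1 to 6, beside 24.2%, 31.3%, 35.9%, 11.4%, 10.5% and 13.6% of all units. With a replicate block for the letters they were 2, 8, 10 and 13 at days 1, 2, 3 and 7, and 8 between late and early days, beside 14.7%, 22.6%, 29.9%, 34.4% and 14.5% of units. The letters are not shown to pair the arrays, so the block is an alternative only. Without the C arrays of days 4 to 7 they were 6, 15, 16 and 13 at days 1, 2, 3 and 7, and 11 in the F-test, beside 21.3%, 31.1%, 37%, 31.5% and 30.1% of units. Against the common RNA in the other channel, in place of the day 0 arrays, 3, 14, 17, 16, 18, 17 and 15 of the 58 members passed on days 1 to 7. The shares of all units were then 16.2%, 25.8%, 32.4%, 32.2%, 32.6%, 36.4% and 35.1%. Turning the sign of the 3 day 0 arrays gave 0, 6 and 3 at days 1, 5 and 7 (4.84%, 12.6% and 11.6% of units), and turning day 0 array C alone 5 and 8 at days 1 and 2 (16% and 22.7%). With 1 value a day enough, 2 passed at day 1 (12.7% of units). Averaging letters, an alternative added after the data were seen, gave 0 between late and early days. The causes were not tested.

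Leaving out 1 array at a time gave 0 to 4 members at day 1, 1 to 6 at day 2, 2 to 9 at day 3, 3 to 11 at day 4, 4 to 10 at day 5, 3 to 9 at day 6 and 4 to 10 at day 7. It gave 2 to 6 between late and early days and 1 to 6 in the F-test. The share of all units moved with the array left out, from 3.1% to 14.7% at day 1, 7.98% to 20.4% at day 2, 11.7% to 26.2% at day 3, 11.5% to 24.3% at day 4, 11.5% to 24.7% at day 5, 14.4% to 26.9% at day 6 and 15.2% to 29.1% at day 7, 3.79% to 11.7% between late and early days and 7.12% to 20% in the F-test. The other settings tried left each count within 1.5 times the main one. With all day 0 signs turned, Eef1e1 was still called on days 3 to 7 and Eif4b (0.55 to 0.67 on days 3 to 7) on no day, and the day 7 changes of Eif5a (-0.65) and Eif2a (0.98) and the day 6 change of Rars (0.45) no longer passed. The 3 arrays a day, with a median standard error of 0.314 at day 7, limit what could be detected.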
